A study of Mus musculus with 5 samples.

Results

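Nitric oxide synthases and the effectors of cyclic GMP (cGMP) were examined in mouse retinas after form deprivation. The set held 8 genes chosen by name from the 33636 rows of the count table, namely the synthases Nos1, Nos2 and Nos3, the adaptor Nos1ap, the kinases Prkg1 and Prkg2, the phosphodiesterase Pde5a and the arginase Arg2. Each symbol had 1 row, and all 8 genes were tested. Both groups came from wild-type male C57BL6/J mice that had a diffuser fixed in front of the right eye from P28 to P42. The form-deprived (FDM) group was the goggled eye after 2 weeks (2 libraries), and the control group was the uncovered left eye of goggled mice (3 libraries), so no retina of an unmanipulated animal was included. Refractive error at P42 was given as 0.976 and 0.2745 D for the FDM eyes and as 2.4455 to 3.1505 D for the control eyes. FDM 1 and Control 1 were the eyes of mouse 1, FDM 3 and Control 3 those of mouse 3, and Control 2 had no partner.

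Nitric oxide is made from arginine by 3 synthases, a neuronal form encoded by Nos1, an inducible form encoded by Nos2 and an endothelial form encoded by Nos3. It diffuses into neighbouring cells and activates a soluble guanylyl cyclase, whose product cGMP acts on protein kinases and ion channels until phosphodiesterases break it down. In the retina, neuronal synthase is best known from a subset of amacrine cells, endothelial synthase from blood vessels, and nitric oxide has been studied as a light-dependent messenger and in the control of eye growth.

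The libraries held 40599047 to 56534931 estimated counts, and levels are given as CPM, the count relative to the library total scaled by its TMM factor. A floor of 3 counts corresponded to 0.0526 to 0.0751 CPM, which covers counting error only. Some libraries stood apart in tissue markers. The 9 lens markers found summed to 2100 CPM in FDM 3 and to between 2.90 and 20.6 CPM in the other libraries, and the 9 markers of the retinal pigment epithelium (RPE) to 289 CPM in Control 2 and 245 CPM in Control 3 against 77.3 to 96.3 CPM in the rest. The 5 skeletal muscle markers summed to 55.8 CPM in Control 3 against 9.24 to 10.7 CPM in the rest, and the 5 fibroblast markers to 32.1 CPM there against 15.4 to 24.7 CPM. Rod, cone, bipolar, amacrine, ganglion cell and Müller glia markers were detected in every library, and no marker of any list stayed at or under 3 counts throughout. In bulk tissue, fewer cells of a type and less RNA per cell cannot be told apart.

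Prkg1 is a long gene with more than one start. It spans 1200545 bases on the minus strand of chromosome 19 of GRCm38, from 30564489 to 31765033, and its count sums transcripts from different first exons, which are known to give the Iα and Iβ forms of the kinase. Of the 8 genes, 4 had a start window in the RefSeq table for GRCm38.p6. The sequences before both Prkg1 starts and before a Nos1 start are printed because Prkg1 varied most among the libraries and Nos1 least. Each is the 250 bases before the start, read 5′ to 3′ on the strand of the gene, and overlaps no exon of the GENCODE M21 annotation. The Nos1 window lies within the span of the gene and ends in a pyrimidine-rich run and AG, as introns do. Whether a transcript starts there was not tested, so its motif counts and GC content may not describe a promoter. Capitals mark a GC box (GGGCGG on either strand).
Prkg1 outer start, chr19:31765034-31765283, minus strand: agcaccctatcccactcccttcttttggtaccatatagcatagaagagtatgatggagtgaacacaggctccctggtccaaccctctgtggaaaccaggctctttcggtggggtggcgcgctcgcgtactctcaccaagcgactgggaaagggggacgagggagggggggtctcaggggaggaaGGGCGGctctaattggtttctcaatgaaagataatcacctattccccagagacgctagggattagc
Prkg1 inner start, chr19:31664371-31664620, minus strand: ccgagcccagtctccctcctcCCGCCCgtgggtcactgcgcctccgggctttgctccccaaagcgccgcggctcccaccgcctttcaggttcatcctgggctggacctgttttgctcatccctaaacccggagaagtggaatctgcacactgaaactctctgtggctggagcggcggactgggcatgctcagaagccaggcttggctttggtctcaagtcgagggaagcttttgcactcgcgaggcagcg
Nos1 start, chr5:117866589-117866838, plus strand: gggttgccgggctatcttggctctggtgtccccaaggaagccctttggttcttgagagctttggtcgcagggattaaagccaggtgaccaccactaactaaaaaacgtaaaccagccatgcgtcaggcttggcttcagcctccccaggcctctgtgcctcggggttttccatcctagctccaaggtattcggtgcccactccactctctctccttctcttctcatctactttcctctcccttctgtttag
Each Prkg1 window held 1 GC box and the Nos1 window held 0, while 32.7% of the 32851 RefSeq windows of this length held at least 1. None (0) of the windows shown held TATAAA, TGACGTCA (the cAMP response element) or a CArG box on either strand, which stood in 12.4%, 1.55% and 1.47% of all windows. GC content was 55.2% and 62.8% in the Prkg1 windows and 54% in the Nos1 window.

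Per kilobase of exon, Arg2 and Nos3 had the highest levels of the 8 genes. Arg2, which encodes the mitochondrial arginase that competes with the synthases for arginine, stood at 8.58 to 10.1 CPM per kilobase. Nos3 followed at 3.42 to 4.67, Nos1 at 1.28 to 1.42 and Nos1ap at 1.05 to 1.18 CPM per kilobase. These 4 ranges did not overlap. Below them, Pde5a ran from 0.683 to 1.16 and Prkg2 from 0.732 to 1.05 CPM per kilobase. These ranges overlapped each other, and that of Pde5a overlapped with that of Nos1ap. The range of Prkg2 reached that of Nos1ap, with its highest value and the lowest of Nos1ap both at 1.05. Prkg1 ran from 0.131 to 0.304 and Nos2 from 0.0914 to 0.137 CPM per kilobase, and these also overlapped. Of the NO-sensitive cyclase that lies between synthase and kinase, the subunit genes Gucy1a1, at 20.0 to 23.5, and Gucy1b1, at 22.8 to 28.3 CPM per kilobase, lay above all 8 genes. A further subunit, Gucy1a2, was at 0.236 to 0.361 CPM per kilobase, below the ranges of 6 of the 8. The order rests on the exon union of each gene, which counts exons that a retinal transcript may not use.

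**Figure D1:**
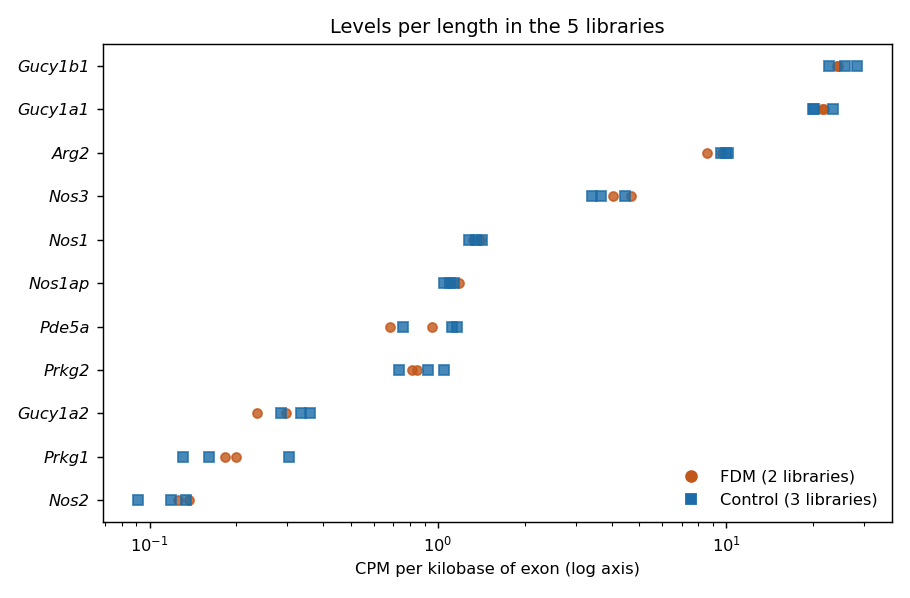
Level of the 8 genes and of 3 tested subunits of the NO-sensitive cyclase, as CPM per kilobase of exon on a log axis, with 1 point for each FDM (circle) and control (square) library. The cyclase subunits Gucy1a1 and Gucy1b1 lie at 20.0 or higher in all 5 libraries, Arg2 is the highest of the 8 genes and Nos2 the lowest by its median of 0.125.

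The comparison of FDM with control eyes asks whether these genes responded to blurred vision. None (0) of the 8 genes had an unadjusted p under 0.05 in edgeR's quasi-likelihood test, against 1.61% of the 17432 genes tested, 0.453% higher and 1.16% lower in FDM eyes. The smallest unadjusted p was 0.211, for Pde5a, and the adjusted p was 1.0 for all 8. DESeq2's Wald test and limma on the normalized counts also called 0 of the 8. The median log2 fold change of the 8 genes was -0.03, and over all genes tested it was -0.01. Log2 fold changes ran from -0.30 for Pde5a to 0.20 for Nos2. When mouse was a block, 0 of the 8 had an unadjusted p under 0.05, against 7.23% of all genes tested, and 0 passed adjustment in that fit, against 0.31%. For none (0) of the 8 genes did both FDM libraries lie above or below all controls, an arrangement that 10.6% of the genes tested showed, 3.97% above and 6.67% below.

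**Figure D2:**
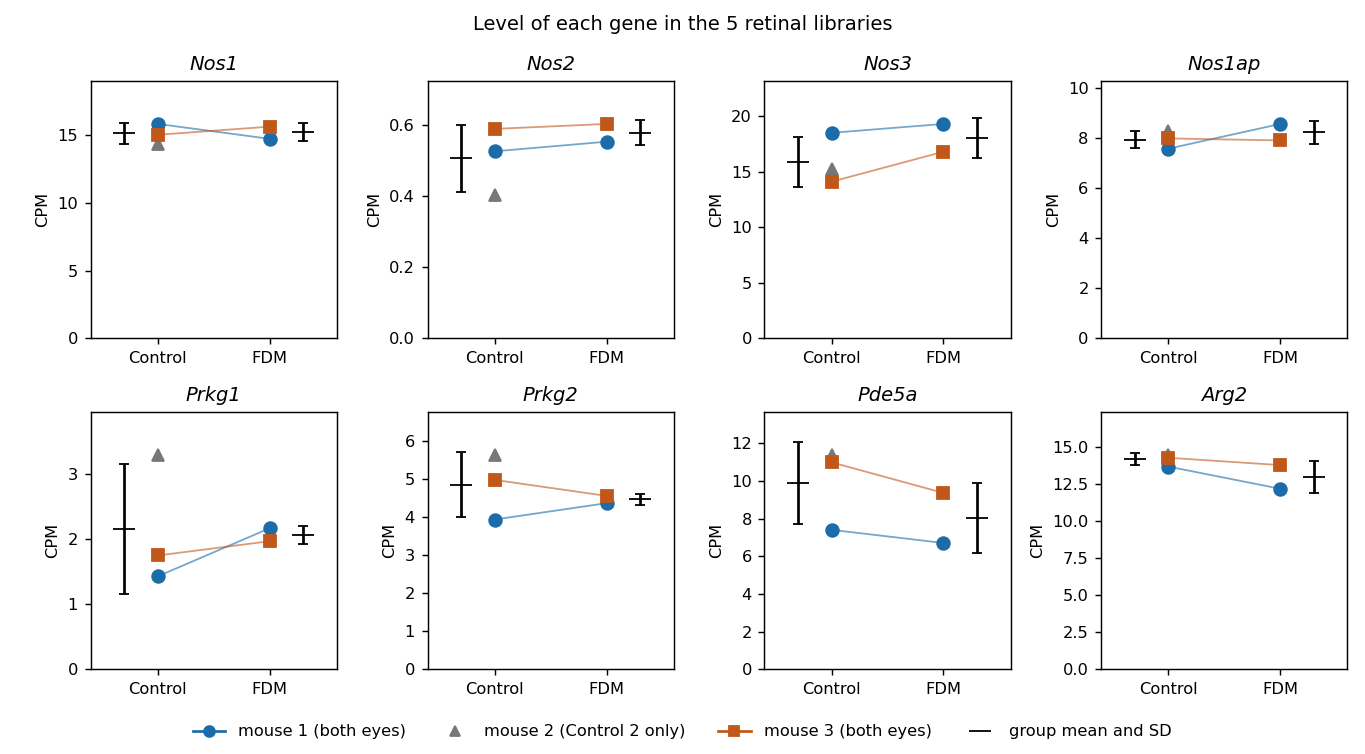
CPM of each gene in the 3 control and 2 FDM libraries, with eyes of one mouse joined by a line and the group mean ± SD in black. FDM and control values overlap in all 8 panels, and Pde5a is lower in both eyes of mouse 1 than in both eyes of mouse 3.

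Nos1, the neuronal synthase, was steady across the libraries. It lies on chromosome 5 of GRCm38 (117781032 to 117958840) and gave 637 (FDM) and 633 (control) counts in mouse 1, 752 and 713 in mouse 3, and 815 in Control 2. Scaled for depth, FDM 1 and FDM 3 stood at 14.7 and 15.6 CPM and the controls at 15.8, 14.3 and 15.0 CPM, in the order Control 1, 2, 3 that is used for every gene. Both FDM libraries lay inside the range of the controls, and the highest library was 1.11-fold above the lowest. The mean was 15.2 ± 0.666 CPM over the FDM eyes (SD, n = 2) and 15.1 ± 0.780 CPM over the controls (SD, n = 3). edgeR put FDM against control at 0.01 on the log2 scale (standard error 0.10), at unadjusted p = 0.910 (adjusted p = 1.0), and the 95% interval ran from 0.86-fold to 1.18-fold. The 7 amacrine cell markers, among them Gad1 and Slc32a1, summed to 1240 to 1320 CPM with 0 of 7 called.

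Nos3, the endothelial synthase, had higher means in FDM eyes by less than the spread among libraries. This gene of chromosome 5 (24364810 to 24384474) was counted 837 times in the FDM eye and 737 times in the control eye of mouse 1, 807 and 672 times in those of mouse 3, and 865 times in Control 2. These were 19.3 and 16.8 CPM in FDM eyes and 18.5, 15.2 and 14.1 CPM in control eyes. Control 1 lay between the FDM libraries, and the other controls lay below both. The mean was 18.0 ± 1.79 CPM over the FDM eyes (SD, n = 2) and 15.9 ± 2.25 CPM over the controls (SD, n = 3). In edgeR the estimate was 0.18 on the log2 scale (standard error 0.14), at unadjusted p = 0.225 (adjusted p = 1.0), and the 95% interval ran from 0.908-fold to 1.41-fold. The fit without Control 1 called 946 of the 17353 genes it tested, against 281 of 17432 with all libraries. In that fit mouse 1 is present by its FDM eye alone. Whether Nos3 was called depended on Control 1. Without that library the log2 fold change was 0.30 (unadjusted p = 0.0359 from edgeR), and leaving out any other library gave no call. The 12 endothelial markers, among them Pecam1 and Cdh5, summed to 398 and 403 CPM in the FDM and control eyes of mouse 1, to 364 and 358 CPM in those of mouse 3 and to 348 CPM in Control 2. Both eyes of mouse 1 were thus highest for this sum as for Nos3, and Nos3 amounted to between 3.95% and 4.85% of the summed markers. Kdr alone made up 163 to 202 CPM of the sum and was itself highest in both eyes of mouse 1. The order differed between single markers. Cldn5 was also highest in mouse 1, whereas Tie1 was highest in Control 3, at 9.01 CPM, and Emcn was lowest in Control 1, at 1.4 CPM. None (0) of the 12 markers had an unadjusted p under 0.05, their median log2 fold change was -0.01, and their part in the Nos3 levels was not tested.

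Exons of Nos3 are shared with genes on the opposite strand, 25.2% of its exon bases with the antisense gene Gm15587 and 7.12% with Atg9b. The labels name no strand-marking step for these libraries, and reads from such overlaps could be split between partners. Atg9b had 105 to 149 counts and a log2 fold change of -0.07 (unadjusted p = 0.698 in edgeR). No counts were given under the name Gm15587, so a split of reads with this larger partner could not be judged.

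Nos2, the inducible synthase known from activated immune cells, was near the lower end of what was tested. On chromosome 11 (78920787 to 78960254), it gave 24 (FDM) and 21 (control) counts in mouse 1, 29 and 28 in mouse 3, and 23 in Control 2. These equal 0.553 and 0.603 CPM in FDM eyes and 0.526, 0.403 and 0.589 CPM in control eyes, all above the 3-count floor. FDM 1 lay among the controls and FDM 3 just above them. In edgeR the estimate was 0.20 on the log2 scale (standard error 0.28), at unadjusted p = 0.496 (adjusted p = 1.0), and at this depth the 95% interval spanned 0.728-fold to 1.82-fold. The 7 microglia markers, which include Aif1 and Cx3cr1, summed to 27.7 to 30.8 CPM in FDM eyes and 31.7 to 36.3 CPM in control eyes, with 0 of 7 called.

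Nos1ap encodes the adaptor that competes for the PDZ domain of neuronal synthase. It covers 170302668 to 170589861 of chromosome 1 and was counted 372 times in the FDM eye and 303 times in the control eye of mouse 1, 381 and 380 times in those of mouse 3, and 472 times in Control 2. Its levels of 8.58 and 7.92 CPM in FDM eyes and 7.59, 8.28 and 8.0 CPM in control eyes overlapped and differed by at most 1.13-fold. edgeR put FDM against control at 0.05 on the log2 scale (standard error 0.11), at unadjusted p = 0.653 (adjusted p = 1.0), and the 95% interval ran from 0.867-fold to 1.24-fold.

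**Figure D3:**
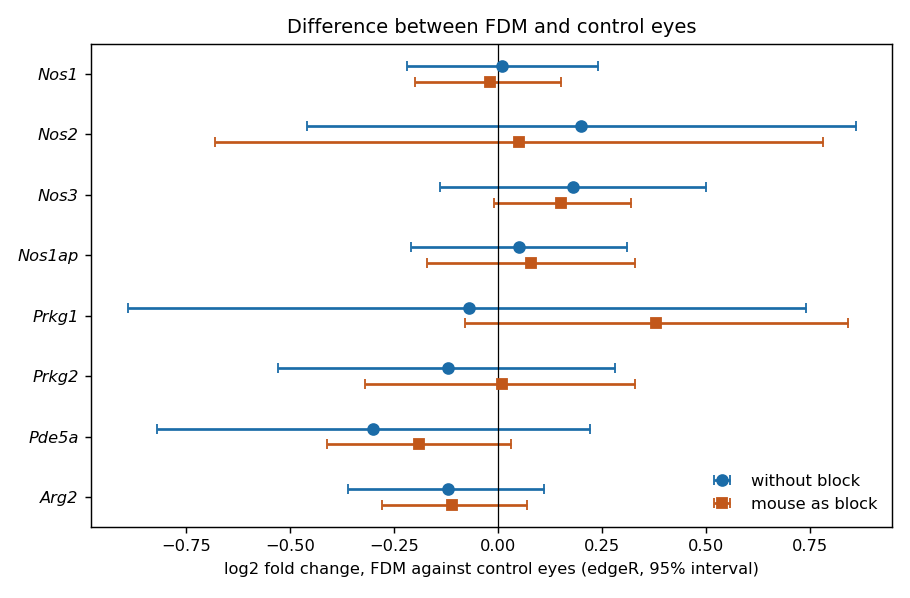
Log2 fold change of each gene between FDM and control eyes with its 95% interval, from edgeR without a block (circles) and with the mouse as a block (squares). All 16 intervals include 0, and Nos2 and Prkg1 have the widest without the block, reaching 0.86 and 0.74 upwards.

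Prkg1, the cGMP-dependent kinase known from smooth muscle and neurons, varied more than any other of the 8 genes. It gave 94 (FDM) and 57 (control) counts in mouse 1, 95 and 83 in mouse 3, and 188 in Control 2. These were 2.17 and 1.97 CPM in FDM eyes and 1.43, 3.30 and 1.75 CPM in control eyes. Control 2 was highest and Control 1 lowest, 2.31-fold apart, and both FDM libraries lay between them. The controls therefore spread more (2.16 ± 1.0 CPM, SD, n = 3) than the FDM eyes (2.07 ± 0.137 CPM, SD, n = 2). In edgeR the estimate was -0.07 on the log2 scale (standard error 0.35), at unadjusted p = 0.840 (adjusted p = 1.0), and the 95% interval ran from 0.54-fold to 1.67-fold. The direction turned when Control 2 was left out, to 0.39 (unadjusted p = 0.0978 from edgeR), and with the mouse as a block, to 0.38 (unadjusted p = 0.0933, adjusted p = 0.712, edgeR). Control 2, from the mouse with no FDM library, does not enter the difference in that fit.

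Prkg2, the second cGMP-dependent kinase, had levels that overlapped between FDM and control eyes. From 98929773 to 99037351 on chromosome 5, it was counted 189 times in the FDM eye and 157 times in the control eye of mouse 1, 219 and 236 times in those of mouse 3, and 321 times in Control 2. The levels were 4.36 and 4.55 CPM in FDM eyes and 3.93, 5.63 and 4.97 CPM in control eyes, with the FDM libraries inside the range of the controls and Control 2 again highest and Control 1 lowest. edgeR put FDM against control at -0.12 on the log2 scale (standard error 0.17), at unadjusted p = 0.499 (adjusted p = 1.0), and the 95% interval ran from 0.692-fold to 1.22-fold.

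Pde5a, which encodes the cGMP-specific phosphodiesterase inhibited by sildenafil, had the largest fold difference of the set, and it did not pass the test. It lies on chromosome 3 (122728947 to 122859374) and gave 291 (FDM) and 296 (control) counts in mouse 1, 451 and 521 in mouse 3, and 649 in Control 2. In CPM these were 6.71 and 9.37 in FDM eyes and 7.41, 11.4 and 11 in control eyes. FDM 1 and Control 1 were the lowest libraries, and FDM 3 lay between Control 1 and the other controls. The mean was 8.04 ± 1.88 CPM over the FDM eyes (SD, n = 2) and 9.92 ± 2.18 CPM over the controls (SD, n = 3). In edgeR the estimate was -0.30 on the log2 scale (standard error 0.22), at unadjusted p = 0.211 (adjusted p = 1.0), and the 95% interval ran from 0.564-fold to 1.16-fold. As for Nos3, the fit without Control 1 keeps only the FDM eye of mouse 1, and it called 946 of 17353 genes tested. Whether Pde5a was called also depended on Control 1. Without it the log2 fold change was -0.47 (unadjusted p = 0.0259 from edgeR), while without FDM 1 it was -0.08 (unadjusted p = 0.749), without FDM 3 -0.57 (unadjusted p = 0.0662) and without Control 2 -0.18 (unadjusted p = 0.451).

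Pde5a and Prkg1 are both known from vascular smooth muscle. The 11 pericyte and smooth muscle markers summed to between 121 and 130 CPM, of which the pericyte gene Rgs5 made up 55.5 to 67.7 CPM, and 0 of 11 were called. Single markers varied more than their sum. The smooth muscle actin Acta2 ran from 4.08 CPM in FDM 1 to 7.21 CPM in FDM 3, and the muscle filament gene Des stood at 6.72 CPM in Control 3 against 1.71 to 2.08 CPM in the rest. The part of these cells in the levels of Pde5a and Prkg1 was not tested. Of the 9 RPE markers, 6 (Kcnj13, Lrat, Rdh5, Rgr, Rpe65 and Ttr) were called lower in FDM eyes and 0 higher. Of all genes tested, 1.16% were called lower. The summed RPE markers were at 181% of their mean in Control 2 and 154% in Control 3. Control 1 was at 60.3%, near FDM 1 at 56.6% and FDM 3 at 48.4%. Control 2 and Control 3 were also the highest libraries for Pde5a, Prkg2 and Arg2, but Control 3 was not high for Prkg1, at 82.3% of its mean. Control 3 was also highest for the skeletal muscle and fibroblast markers given above. The part of the RPE, muscle and fibroblast markers in these levels was not tested.

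**Figure D4:**
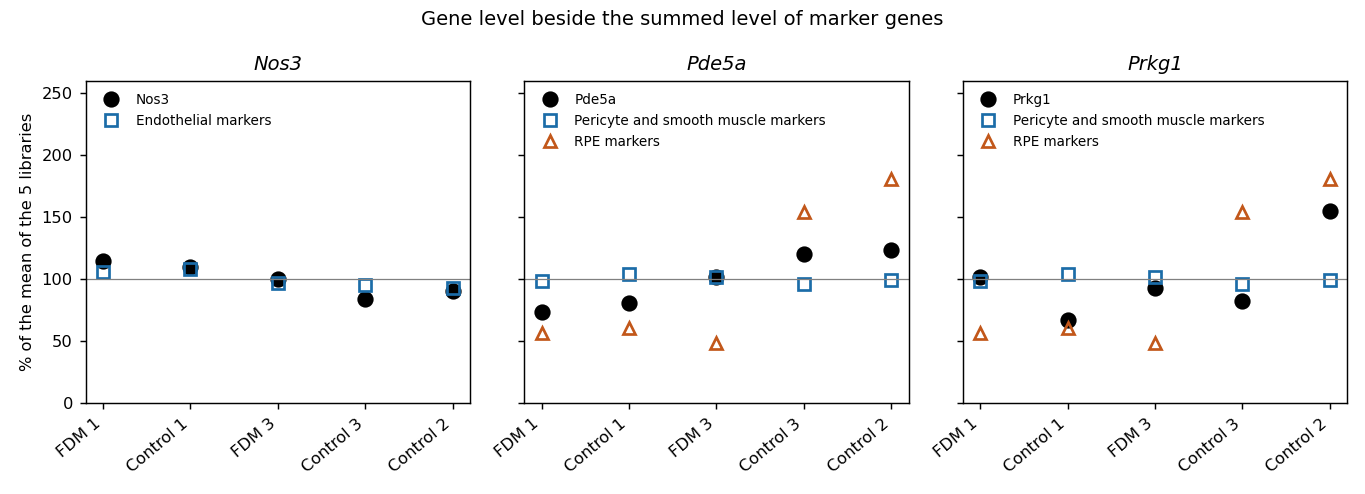
Level of Nos3, Pde5a and Prkg1 (filled circles) in each library as a percentage of the mean of the 5 libraries, beside the summed level of endothelial, pericyte and smooth muscle, and RPE markers (open symbols), with libraries ordered by mouse. The marker values are sums over several genes. RPE markers stand at 154% in Control 3 and 181% in Control 2, where Pde5a stands at 120% and 124% and Prkg1 at 82.3% and 155%.

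Arg2 had slightly lower means in FDM eyes, by less than its spread allowed to call. It occupies 79130777 to 79156301 of chromosome 12 and was counted 531 times in the FDM eye and 547 times in the control eye of mouse 1, 662 and 678 times in those of mouse 3, and 826 times in Control 2. The levels were 12.2 and 13.8 CPM in FDM eyes and 13.7, 14.5 and 14.3 CPM in control eyes, so that FDM 1 was below every control and FDM 3 was above Control 1. edgeR put FDM against control at -0.12 on the log2 scale (standard error 0.10), at unadjusted p = 0.264 (adjusted p = 1.0), and the 95% interval ran from 0.78-fold to 1.08-fold. Of the Arg2 exon bases, 20% are shared with Vti1b on the opposite strand, which had 2276 to 3144 counts and a log2 fold change of -0.03 (unadjusted p = 0.735 in edgeR).

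Comparing the eyes of one mouse removes differences between animals. Nos2, Nos3 and Prkg1 (3 of 8 genes) were higher in the FDM eye of both mice, as were 24.6% of all genes tested, and Pde5a and Arg2 (2 of 8) were lower in both, as were 30.4% of all genes. The other 3 genes had opposite signs. For Nos3 the FDM eye minus the control eye was 0.06 in mouse 1 and 0.25 in mouse 3 on the log2 CPM scale. Pde5a gave -0.14 and -0.23, and Arg2 -0.16 and -0.05. The widest eye difference was that of Prkg1 in mouse 1, at 0.60, where the control eye had only 57 counts, against 0.18 in mouse 3. The median absolute difference over the 8 genes was 0.15 in mouse 1 and 0.10 in mouse 3, and over all genes tested, with 0.5 counts added, it was 0.10 in both. With the mouse as a block, Nos3 had a log2 fold change of 0.15 (unadjusted p = 0.0682, adjusted p = 0.695 from edgeR) and Pde5a one of -0.19 (unadjusted p = 0.0875, adjusted p = 0.711).

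The mice differed from each other for some of these genes by more than their eyes did. Averaged over both eyes on the log2 scale, Pde5a was at 7.05 CPM in mouse 1 and 10.1 CPM in mouse 3, a 1.44-fold difference. Nos3 went the other way, with 18.9 CPM in mouse 1 and 15.4 CPM in mouse 3. Prkg2 was 1.15-fold and Nos2 1.1-fold higher in mouse 3. For these 4 of 8 genes the difference between the mice exceeded both eye differences, as it did for 30.1% of all genes tested, and for 5 of 8, with Arg2 added, the eyes of one mouse did not overlap with those of the other, as for 44.8% of all genes. With 2 mice these are descriptions, and no test was run.

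**Figure D5:**
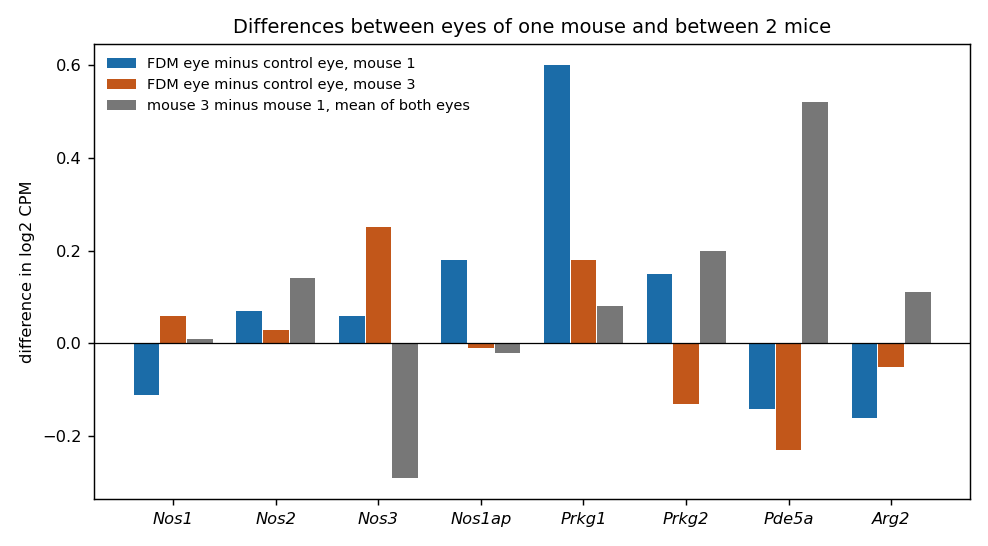
Difference in log2 CPM between the FDM and control eye of mouse 1 and of mouse 3, and between the mice (mean of both eyes), for each gene. The difference between mice is widest for Pde5a, at 0.52, and Nos3, at -0.29, and the eye difference of mouse 1 is widest for Prkg1, at 0.60.

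The rest of the pathway was followed in 72 other genes, all found in the table and 69 tested. Of these, 3 fell in FDM eyes at an unadjusted p under 0.05, 0 rose, and 66 were not called. Their median log2 fold change was -0.04, and 1.16% of all genes tested fell at this threshold. After adjustment 0 of the 69 passed. Gucy2c, a receptor cyclase best known from the intestine, gave 4 (FDM) and 15 (control) counts in mouse 1, 7 and 11 in mouse 3, and 24 in Control 2. In edgeR the estimate was -1.50 on the log2 scale (standard error 0.47), at unadjusted p = 0.0147 (adjusted p = 1.0), on counts this low. The call was lost without FDM 1, at -1.23 (unadjusted p = 0.0823), in DESeq2, at -1.52 (unadjusted p = 0.0555), and with the mouse as a block, and it held in 11 of 14 alternatives.

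Pde2a, a cGMP-stimulated phosphodiesterase, fell by a small amount. It stood at 14.1 and 13.7 CPM in FDM eyes and at 16.2, 16.0 and 17.6 CPM in control eyes, with no overlap. edgeR put FDM against control at -0.26 on the log2 scale (standard error 0.10), at unadjusted p = 0.0279 (adjusted p = 1.0). With the authors' gene-wise factors in edgeR it was -0.14 (unadjusted p = 0.183). Leaving out FDM 1, FDM 3 or Control 3 also ended the call, at -0.28, -0.24 and -0.21 (unadjusted p = 0.103, 0.154 and 0.0952 from edgeR). So did limma with either pseudocount, at -0.14 (unadjusted p = 0.163 and 0.158), and a call was made in 8 of 15 alternatives.

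Npr3, the clearance receptor for natriuretic peptides, stood at 3.04 and 3.35 CPM in FDM eyes and at 3.41, 5.14 and 4.74 CPM in control eyes. Control 1 was close to FDM 3, and the highest libraries were Control 2 and Control 3, as for the summed RPE markers. The part of the RPE markers in the Npr3 levels was not tested. edgeR put FDM against control at -0.47 on the log2 scale (standard error 0.20), at unadjusted p = 0.0491 (adjusted p = 1.0). The call was lost with the gene-wise factors, at -0.44 (unadjusted p = 0.0701 from edgeR), and without FDM 1, FDM 3, Control 2 or Control 3, with values of -0.41, -0.54, -0.34 and -0.42 (unadjusted p = 0.19, 0.0967, 0.134 and 0.131 from edgeR). RLE factors (unadjusted p = 0.0534), DESeq2 (0.0566), limma (0.0984 and 0.101) and either block also gave no call, so that Npr3 was called in 4 of 15 alternatives.

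In the fit blocked by mouse, 6 of the 69 pathway genes had an unadjusted p under 0.05 and 0 passed adjustment, and 7.23% of all genes were called in that fit. Pde2a remained, at -0.29 (unadjusted p = 0.00443, adjusted p = 0.434 from edgeR), while Gucy2c and Npr3 did not (unadjusted p = 0.0521 and 0.062). Which call remained depended on the pairing. Blocked by the label numbers, which join FDM 3 to Control 2, Pde2a was not called, at -0.22 (unadjusted p = 0.124 from edgeR). Gucy2c was, at -1.72 (unadjusted p = 0.00448), and Npr3 was not, at -0.40 (unadjusted p = 0.0586). In that fit 2 of the 69 pathway genes were called in all, and 439 of all 17432 genes tested. The other genes called in the fit blocked by mouse, named after their values were seen, were Gucy2f, a photoreceptor guanylyl cyclase, at 0.38, the cone phosphodiesterase subunit Pde6c at 0.16, the arginine transporter Slc7a2 at 0.17, the rod phosphodiesterase subunit Pde6g at -0.13 and the argininosuccinate lyase Asl at -0.18. Gucy2f resembled Prkg1 in its controls, with 33.4, 83.6 and 47 CPM in Control 1, 2 and 3, and both FDM libraries lay between them at 53.2 and 50.3 CPM. This order was not particular to the pathway. The Müller glia marker Aqp4, at 52.9, 83.6 and 58 CPM in these controls, also had it. So did the ganglion cell marker Slc17a6, at 41.9, 66.4 and 52.1 CPM.

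The NO-sensitive cyclase did not pass the test in any subunit. Gucy1a1 stood at 152 and 149 CPM in FDM eyes and at 141, 164 and 139 CPM in control eyes, and edgeR put the difference at 0.03 on the log2 scale (standard error 0.10), at unadjusted p = 0.803 (adjusted p = 1.0). For Gucy1b1 it was -0.08 and for Gucy1a2 -0.29, with unadjusted p of 0.473 and 0.18, and Gucy1b2 had 5 to 8 counts and was not tested.

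None (0) of the genes of 6 other groups passed the unadjusted threshold. These were 7 channel genes led by the rod channel subunit Cngb1 (log2 fold change 0.04), 3 kinase substrates led by the myosin phosphatase subunit Ppp1r12a (-0.17), 11 synthase partners led by the chaperone Hsp90aa1 (-0.03), 6 genes of the tetrahydrobiopterin cofactor led by Qdpr (-0.03), 11 genes of arginine supply led by the ornithine decarboxylase Odc1 (-0.04) and 3 genes of nitric oxide removal led by the globin Cygb (-0.02). Across these groups the log2 fold changes ran from -0.66, for Agmat, to 0.28, for the cofactor enzyme Gch1. The most abundant gene for cGMP breakdown, the rod subunit Pde6a, stood at 2570 and 2770 CPM in FDM eyes and at 2450 to 2840 CPM in control eyes, and Guca1b, a calcium-sensing activator of photoreceptor cyclase, at 1500 and 1650 CPM against 1420 to 1790 CPM. Neither differed beyond the spread of the controls, with log2 fold changes of 0.01 and -0.02 (unadjusted p = 0.894 and 0.891 in edgeR).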

How the data were processed

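Retinal poly-A RNA was sequenced from 2 FDM and 3 control eyes. The authors trimmed reads with Trimmomatic 0.39, quantified transcripts with Salmon 1.10.1 (GRCm38), and deposited estimated counts per gene as whole numbers. They also deposited counts normalized in DESeq2, a signal whose factor differs between genes of one library. The authors removed another FDM library for its read duplication. Groups follow the sample labels. Eyes were paired by the mouse numbers of the paper and of the count columns, since the labels number the second FDM sample 2 and its column 3. Deviations from the group mean correlated across 17432 genes at 0.247 for mouse 1 and 0.10 for mouse 3, and at 0.163 for FDM 3 with Control 2, the pair that the label numbers would make. With 2 FDM libraries the deviations of FDM 1 and FDM 3 mirror each other, so these correlations are not independent and cannot settle the pairing. The pairing of both mice therefore rests on the stated mouse numbers and not on these correlations.

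A gene entered the fit if 2 or more libraries exceeded 10 counts. The fit was edgeR 4.0.16 under R 4.3.3 (quasi-likelihood test, TMM factors, no covariate). The threshold was an unadjusted p of 0.05, as in the study, with Benjamini-Hochberg adjusted p over all genes beside it. Without the block, eyes of one mouse enter as independent, and p-values measure the spread between these libraries. Standard errors were derived from the F statistic and its fold change, and intervals are 95%. DESeq2 1.42.0 and limma 3.58.1 gave alternatives. The scripts were tested on simulated data. Positions and exon unions are from GENCODE M21 (GRCm38), in which all 8 gene identifiers were found. The 8 genes and all lists were chosen with earlier results of these data known. Named genes were the 8, pathway genes called, the most abundant gene of each pathway group, called markers of the endothelial, pericyte and smooth muscle, amacrine and RPE lists, and the 2 most similar profiles per gene. Genes that overlap a member and those called with the block were added later.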

Additional observations from a re-analysis of the deposited data

How the results depend on the processing

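Fold changes of Nos2, Nos3, Pde5a and Arg2 kept their direction in all 15 alternatives, and a call was made only for Nos3 and Pde5a, without Control 1. That fit called 946 of 17353 genes tested, against 281 of 17432 with all libraries. Log2 fold changes near 0 changed sign. With the mouse as replicate block Nos1 was at -0.02, Prkg1 at 0.38 and Prkg2 at 0.01, with the authors' gene-wise factors Nos1 and Nos1ap were both at -0.01, and in limma with a pseudocount of 1 or 0.1 Nos1 was at -0.01, Nos1ap at -0.01 and Prkg1 at 0.04. Leaving out each library in turn gave -0.03 to 0.05 for Nos1, 0.06 to 0.34 for Nos2, 0.08 to 0.30 for Nos3, -0.01 to 0.11 for Nos1ap, -0.29 to 0.39 for Prkg1, -0.25 to 0.01 for Prkg2, -0.57 to -0.08 for Pde5a and -0.21 to -0.04 for Arg2. It gave 0 to 2 called genes of the 8, 0 to 5 called pathway genes and 146 to 946 called genes in all.

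Of all genes tested, 281 were called. DESeq2 called 172 and limma 500 (pseudocount 1) or 493 (pseudocount 0.1), and fitting every gene with at least 1 count gave 498. The replicate block by the paper's mouse numbers called 1261, and the replicate block by the label numbers, which joins FDM 3 to Control 2, called 439. Called pathway genes numbered 3, against 1 with the gene-wise factors and 6 with the block by mouse, which changed no call of the 8 genes. The cause of these shifts was not tested. Each of the 8 symbols had 1 row, so that summing rows changed nothing. Leaving out an FDM library leaves 1 in that group, which is assumed to vary like the controls. Gucy2c was not tested when all 5 libraries had to exceed 10 counts. Either block leaves a single residual degree of freedom. Counts of 21 to 29 limit Nos2, and 57 to 188 limit Prkg1.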

Other observations

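The profiles most like those of the 8 genes were sought among the other 17431 genes tested, by the root-mean-square difference of log2 CPM (prior count 2), centred on the mean of each gene, over the 5 libraries. The nearest were Tapbpl for Nos1, at 0.00692, Khnyn for Nos3, at 0.0201, Lman1 for Nos1ap, at 0.0158, Sptlc2 for Prkg2, at 0.00959, and Cth for Arg2, at 0.0111. For the other 3 genes the nearest were Hormad2 for Nos2, at 0.0263, Gm48368 for Prkg1, at 0.052, and Tff2 for Pde5a, at 0.0578. The second nearest were Vasp for Nos1, at 0.00918, Gm3222 for Nos2, Bsn for Nos3 and Stk32a for Nos1ap. For Prkg1, Prkg2, Pde5a and Arg2 they were Nr2c2, Trim37, Fam107a and Pigu. Vasp belongs to the list of kinase substrates, and Nos1 varied least of the 8 genes among the libraries. With 5 libraries, and eyes of one mouse among them, such closeness is a description.

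In the authors' normalized counts Prkg1 stood at 113 and 82.9 in FDM eyes and at 69.0, 154 and 79.4 in control eyes, so that the FDM libraries, close to each other in CPM, were further apart. The factors applied to it were 0.829 in FDM 1 and 1.15 in FDM 3. For Pde5a the factors were 0.937 and 0.959 in these libraries, and its normalized counts were 310 and 470 in FDM eyes and 338, 515 and 516 in control eyes, in the same order of libraries as in CPM except that Control 3 and Control 2 were level.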
